A study of Homo sapiens with 6 samples.

Results

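The ZNF genes of chromosome 19 are the largest gathering of C2H2 zinc finger genes in the human genome. Of the 58735 genes in the deposited count table, 240 carry a transcription factor family label that contains zf-C2H2, lie on chromosome 19 and have a symbol that starts with ZNF, and these 240 are described here. Another 209 ZNF genes with the same family label lie on other chromosomes and serve as the nearest comparison. The cells were HCT-8, an established line from a human colorectal adenocarcinoma, with RNA sequenced in 3 untreated samples and in 3 samples given 5-fluorouracil (5-FU), a pyrimidine analogue that inhibits thymidylate synthase and is incorporated into RNA and DNA. Both groups are the same line, grown as a monolayer in RPMI-1640 with fetal bovine serum; the treated group received 5-FU at its 10% inhibitory concentration, and neither the molar dose nor the duration is given in the sources used here. Whether samples within a group are separate cultures is not stated, so p-values measure only how far these samples differ, which may be technical.

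A C2H2 zinc finger is a short fold that holds a zinc ion between cysteine and histidine residues and reads a few bases of DNA, and ZNF proteins string many such fingers together. Most also carry a KRAB box, which recruits the corepressor TRIM28 (KAP1) and, through it, the histone methyltransferase SETDB1 and the heterochromatin proteins CBX1, CBX3 and CBX5. KRAB zinc finger proteins are best known for silencing retrotransposons, and their genes arose by repeated tandem duplication, which is why so many stand side by side on chromosome 19.

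Protein architecture was read from translated coding sequences of GENCODE release 29. The 239 members with a coding sequence held a median of 12 fingers, counted as 2 cysteines 2 residues apart and, 12 residues on, 2 histidines 3 to 5 residues apart, and ZNF208 held the most, 36. The 208 such ZNF genes elsewhere held a median of 9.5. The core letters of the KRAB A box (Glu-Trp, 2 of any residue, Leu, 3 of any, Gln, 2 of any, Leu-Tyr) were found in 182 of 239 members (76.2%) and in 88 of 208 ZNF genes elsewhere (42.3%). Absence of these letters does not show that a protein lacks a KRAB box, since some boxes diverge from this core.

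Among called members that averaged 50 counts or more and had separate group ranges, the promoters of the 3 largest increases and the 2 largest decreases after 5-FU are printed to show the start regions of genes that moved in opposite directions. Each runs 5′ to 3′ on the gene's own strand from 250 bases before to 50 bases after the start, from RefSeq on GRCh38.p14. Capitals mark matches, on either strand, to 4 motifs: CGGAAG of ETS factors, GGGCGG of SP and KLF factors, ATGGCG of YY1 and CCAAT of NF-Y. The ETS and SP/KLF motifs can share bases where they meet.
ZNF540, chr19:37551124-37551423, plus strand: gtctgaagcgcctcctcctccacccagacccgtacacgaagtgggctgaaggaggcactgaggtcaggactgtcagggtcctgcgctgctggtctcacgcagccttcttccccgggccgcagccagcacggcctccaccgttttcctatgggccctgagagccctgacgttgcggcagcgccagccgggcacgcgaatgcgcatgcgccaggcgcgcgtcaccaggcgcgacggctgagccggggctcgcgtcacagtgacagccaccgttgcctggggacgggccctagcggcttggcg
ZNF461, chr19:36666788-36667087, minus strand: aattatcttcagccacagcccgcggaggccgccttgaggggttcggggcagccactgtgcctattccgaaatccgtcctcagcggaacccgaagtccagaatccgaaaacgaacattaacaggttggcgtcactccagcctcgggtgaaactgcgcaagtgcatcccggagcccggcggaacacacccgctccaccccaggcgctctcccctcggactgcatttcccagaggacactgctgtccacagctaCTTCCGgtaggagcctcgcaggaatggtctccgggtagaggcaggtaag
ZNF546, chr19:39996810-39997109, plus strand: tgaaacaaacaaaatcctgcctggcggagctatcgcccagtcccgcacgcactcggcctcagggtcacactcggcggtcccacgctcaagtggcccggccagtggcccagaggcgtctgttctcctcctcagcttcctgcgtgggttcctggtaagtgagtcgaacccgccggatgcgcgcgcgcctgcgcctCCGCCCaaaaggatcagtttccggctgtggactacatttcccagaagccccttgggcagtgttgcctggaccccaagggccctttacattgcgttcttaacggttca
ZNF787, chr19:56121246-56121545, minus strand: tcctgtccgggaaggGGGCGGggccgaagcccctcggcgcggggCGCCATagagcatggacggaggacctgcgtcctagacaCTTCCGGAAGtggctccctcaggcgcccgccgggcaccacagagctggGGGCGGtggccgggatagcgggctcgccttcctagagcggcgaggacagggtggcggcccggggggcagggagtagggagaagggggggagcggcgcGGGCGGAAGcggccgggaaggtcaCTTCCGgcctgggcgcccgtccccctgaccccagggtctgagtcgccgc
ZNF581, chr19:55643399-55643698, plus strand: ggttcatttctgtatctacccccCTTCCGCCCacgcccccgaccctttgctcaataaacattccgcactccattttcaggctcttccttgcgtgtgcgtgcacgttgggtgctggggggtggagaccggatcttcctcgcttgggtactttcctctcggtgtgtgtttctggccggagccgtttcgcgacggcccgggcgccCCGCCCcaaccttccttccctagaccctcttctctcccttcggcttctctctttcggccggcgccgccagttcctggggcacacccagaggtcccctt
The ZNF540 window held none of the 4 motifs and ZNF787 held 4 ETS, 3 SP/KLF and 1 YY1 match. ZNF461 held 1 ETS match, ZNF546 1 SP/KLF match and ZNF581 1 ETS and 2 SP/KLF matches. The windows held 30, 22, 23, 32 and 23 CpG pairs in the printed order. The starts that RefSeq gives ZNF546 and ZNF581 lie well inside the longer gene models of GENCODE, which begin at 39984134 and 55635459.

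Over all members with a RefSeq promoter, 209 of 240, the ETS letters were present in 59.3%, against 31.1% of the promoters of 11102 tested protein-coding genes and 19.9% of all 27305 promoters of this length. The NF-Y letters were present in 54.1%, 35.9% and 35.7% of the same sets. ZNF genes elsewhere (168 promoters) lay between, at 48.8% for ETS and 44.6% for NF-Y. The SP/KLF letters (67.9% of member promoters, 68.3% of tested protein-coding and 44.6% of all) and the YY1 letters (18.2%, 17.1% and 11.0%) were about as frequent in members as in tested protein-coding genes. Among members that rose, 65.6% of 64 promoters held the ETS letters and 60.9% the NF-Y letters; among members that fell, 45.2% and 41.9% of 31 did. A match is a description of letters only and shows no binding.

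Total counts ranged from 18459939 to 23495607 per library. The epithelial markers EPCAM, KRT8, KRT18, CDH1 and VIL1 had group means from 120 to 2828 CPM (counts scaled to library size with TMM factors), and the leukocyte marker PTPRC had too few counts to be tested. PECAM1, of endothelium, had group means of 1.34 and 2.13 CPM. COL1A1, a collagen of fibroblasts, rose from 15.2 to 42.4 CPM, and its part in the results was not tested. Mitochondrial genes took 4.66% to 4.88% of counts in control and 25.5% to 28.5% in 5-FU libraries. Leaving them out gave 75 members higher and 34 lower, beside 75 and 33 with them.

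Members were low in abundance. The 171 members with enough counts for a test had a median level of 9.56 CPM, against 17.6 CPM for ZNF genes elsewhere and 29.2 CPM for protein-coding genes. The other 69 members were not tested; 25 of them had 0 counts in all 6 libraries, which allows a level of up to 0.128 to 0.163 CPM per library (3 counts, counting error only). All 240 members together took 0.219%, 0.219% and 0.211% of counts in the control libraries and 0.305%, 0.266% and 0.255% in the 5-FU libraries. The groups did not overlap, and 5-FU replicate 1 stood highest. The same held for ZNF genes elsewhere, at 0.4425%, 0.4509% and 0.4406% in control and 0.492%, 0.4803% and 0.4648% after 5-FU. Counting without mitochondrial genes in the total, the members' share was 0.227% ± 0.00544 without treatment and 0.376% ± 0.0439 after 5-FU (SD, n = 3 each). ZNF genes elsewhere then took 0.4651%, 0.474% and 0.4621% in control and 0.6883%, 0.6446% and 0.6295% after 5-FU, also apart. The exact permutation test over 3 against 3 libraries cannot go below 0.1, and no test was made of these shares. More members were detected after 5-FU: 187 or 188 had at least 1 count in a control library and 201 or 202 in a 5-FU library, although the 5-FU libraries had lower totals. No such count is given for other genes, so the gain cannot be called particular to members. Genes of low level rose widely: in the lowest quintile of mean CPM 57.6% of tested protein-coding genes were higher and 4.59% lower.

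More members rose than fell. In edgeR's quasi-likelihood test, 75 of 171 tested members (43.9%) were higher after 5-FU at an adjusted p under 0.05, 33 (19.3%) were lower and 63 were not called. Among all 19771 tested genes 36.3% were higher and 33.9% lower, and among the 14187 protein-coding genes 27.8% were higher and 43.6% lower. The median log2 fold change of tested members was 0.33, with an interquartile range from -0.29 to 0.82, against 0.09 for all tested genes and -0.21 for protein-coding genes. A change of at least 2-fold was seen in 31 members that rose and 11 that fell. Control and 5-FU libraries had separate CPM ranges for 64.3% of tested members and 74.3% of all tested genes. The balance moved with scaling: with upper-quartile factors 104 members rose and 16 fell, and with TMM factors refitted at a mean count of at least 50, 74 rose and 19 fell. Under the same settings 9602 of all 19771 tested genes rose and 4614 fell, and 5141 of 14068 rose and 4935 fell. No test of the members as a set was made.

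The filter on low counts bears on these numbers. Of the tested members, 158 passed it through all libraries of both groups, and 63 of them rose and 33 fell. The other 13 passed only through the 5-FU libraries, and 12 of them rose, a direction that this way of passing largely fixes. With a mean count of at least 50 in the same fit, 56 of 144 members (38.9%) rose and 32 (22.2%) fell with a median of 0.17, beside 23.4% and 49.3% of 12282 protein-coding genes with a median of -0.33. Without 5-FU replicate 1, whose members had a median log2(CPM + 0.5) of 3.45 against 3.24 and 3.25 in the other two 5-FU libraries and 3.12 to 3.15 in control, 64 members rose and 33 fell and the median was 0.22. On the deposited FPKM values, with FPKM of at least 1 in 3 samples, 35 members rose and 33 fell out of 120 tested. Of all 16093 genes tested in that way, 4320 rose and 7136 fell.

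Among ZNF genes elsewhere the counts in both directions were closer to each other. Of 181 tested, 58 (32.0%) rose and 50 (27.6%) fell, and the median log2 fold change was 0.01. Other protein-coding genes of chromosome 19 showed more decreases than increases: 267 of 862 (31.0%) rose and 363 (42.1%) fell, with a median of -0.17. The other C2H2 genes had 33 of 123 higher and 44 lower (median -0.10). Within them, KLF and SP genes, which bind GC-rich promoters, fell in 14 of 20 cases and rose in 1. ZSCAN and ZKSCAN genes, which pair fingers with a SCAN dimerization domain, rose in 7 and fell in 3 of 22 cases. Genes named ZFP leaned the other way, with 3 of 12 higher and 6 lower (median -0.17). The chart of calls by gene set shows these shares side by side.

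**Figure D1:**
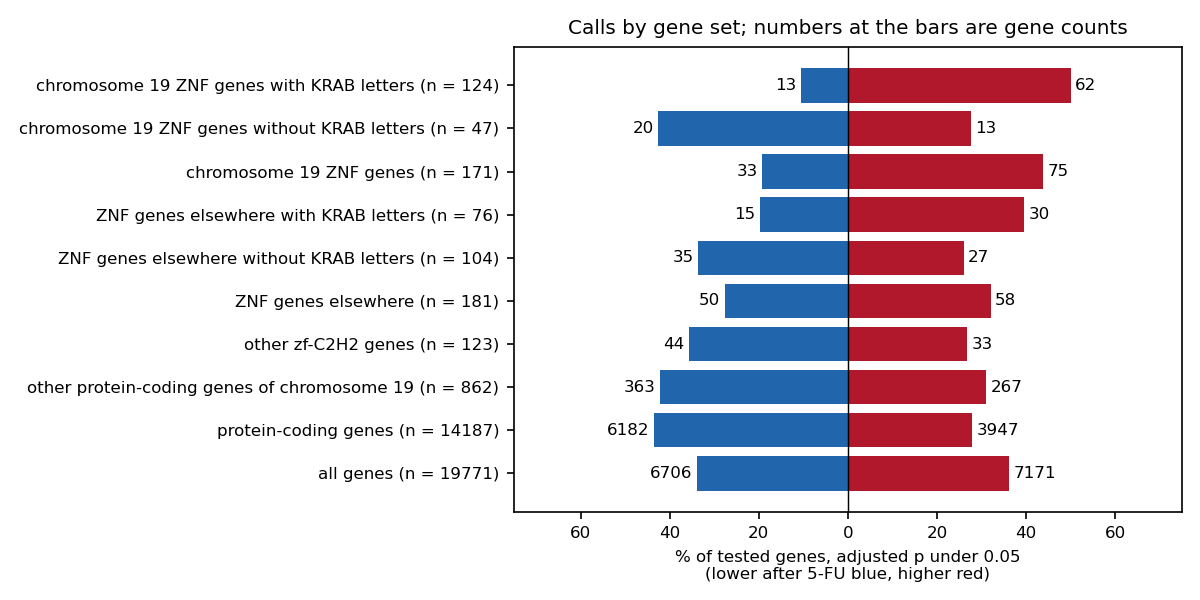
Bars give the percent of tested genes in each set that were lower (blue, to the left) or higher (red, to the right) after 5-FU at an edgeR adjusted p under 0.05, with the gene counts at the bar ends. Chromosome 19 ZNF genes with KRAB letters have the longest red bar, 62 of 124, and the shortest blue bar, 13 of 124.

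Most members that rose carried the KRAB letters, as did most tested members. Of 124 tested members with the KRAB letters, 62 rose and 13 (10.5%) fell, for a median log2 fold change of 0.46. Of 47 without them, 13 (27.7%) rose and 20 (42.6%) fell, with a median of -0.26, close to the 27.8%, 43.6% and -0.21 of all protein-coding genes. Among members that passed the count filter through both groups, 52 of 113 with the letters rose and 13 fell, and 11 of 45 without them rose and 20 fell. Over all tested members, of which 124 of 171 carry the letters, KRAB members made up 82.7% of those that rose and 39.4% of those that fell. These shares include members that passed the filter only through the 5-FU libraries. ZNF genes elsewhere leaned the same way with smaller medians, 0.15 with the letters (30 of 76 higher, 15 lower) and -0.08 without (27 of 104 higher, 35 lower). The difference between the classes was not tested.

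The summed counts of each class were compared in the same way. KRAB members took 0.130%, 0.132% and 0.121% of counts in the control libraries and 0.212%, 0.177% and 0.173% in the 5-FU libraries. Members without the letters took 0.0897%, 0.0869% and 0.0894% in control and 0.0929%, 0.0890% and 0.0818% after 5-FU. The groups were apart for KRAB members and overlapped for the others. With mitochondrial counts left out of the total both classes were apart: 0.136%, 0.139% and 0.127% against 0.296%, 0.237% and 0.234% for KRAB members, and 0.0942%, 0.0913% and 0.0938% against 0.130%, 0.119% and 0.111% for the others. A looser pattern, written after the data were seen, added the diverged boxes of ZNF224 and most of its neighbours. With it 70 of 138 members rose and 16 fell (median 0.48), and of the 33 without it 5 rose and 17 fell (median -0.47). The members without the looser pattern also had a higher median GC content over the gene, 57.8% against 42.4%. The part of GC content in that contrast was not tested. Classes by the fixed letters were closer in median GC content, 42.4% with them and 44.1% without. For those classes, removing a trend on length and GC gave 62 higher and 12 lower with the fixed letters and 13 higher and 19 lower without. The plot of cumulative fold changes shows both classes.

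**Figure D2:**
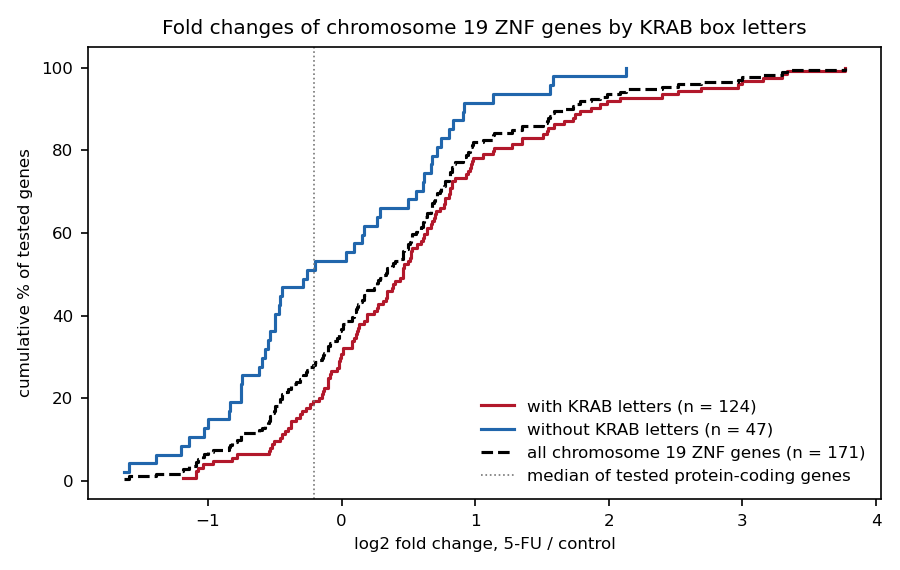
The cumulative percent of tested chromosome 19 ZNF genes (vertical axis) at or below each log2 fold change of 5-FU against control (horizontal axis), for members with KRAB letters (red), without (blue) and all (dashed). The red curve lies to the right of the blue one at every height, with medians of 0.46 and -0.26, and the dotted line marks the protein-coding median of -0.21.

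The finger number went along with this only in part. Members with 15 or more fingers rose in 24 of 53 cases and fell in 5, those with 10 to 14 rose in 33 and fell in 16 of 72, those with 6 to 9 rose in 17 and fell in 8 of 38, and those with 5 or fewer rose in 1 and fell in 4 of 8. The exception in the last class was ZNF274, described below.

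Abundance and length moved with the fold change in the whole table, so members were set beside protein-coding genes of like level. In the middle quintile of all tested genes by mean CPM (6.14 to 24.8), which holds 85 members, 31 rose and 20 fell and the median was 0.12, against -0.19 for protein-coding and -0.02 for ZNF genes elsewhere. In the next quintile up (24.8 to 60.6 CPM) 13 of 24 members rose and 3 fell, with a median of 0.43, against -0.40 for protein-coding genes. From 1.32 to 6.14 CPM the order was the reverse, with a median of 0.19 for 43 members and 0.66 for protein-coding genes. In the lowest quintile, 13 of 17 members rose with a median of 1.54, and 57.6% of protein-coding genes rose with a median of 1.22. Genes this low can pass the count filter through the 5-FU libraries only, which largely fixes their direction, so nothing is concluded from this quintile. By gene length, the middle quintile held the most members, and 19 of 55 rose and 15 fell, with a median of -0.0028 against -0.33 for protein-coding genes. The members' medians in the quintiles below and above it were 0.34 and 0.38 (against -0.45 and -0.18), and in the longest quintile 22 of 38 members rose and 4 fell with a median of 0.70 (against -0.0041).

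Among members that averaged 50 counts or more, the 3 largest increases were of genes with little RNA in untreated cells. ZNF610 (3.77), ZNF350 (3.34), ZNF404 (3.16) and ZNF878 (2.96) had log2 fold changes in the same range on fewer counts. All of them passed the count filter only through the 5-FU libraries, which largely fixes their direction. All but ZNF350 were picked after their values were seen. ZNF540 (ENSG00000171817, 37551406 to 37614097 on the plus strand of GRCh38), a KRAB protein with 17 fingers, was at 0.224, 0.904 and 0.543 CPM in the control libraries and 7.79, 3.49 and 5.30 CPM in the 5-FU libraries. Its log2 fold change was 3.30 (SE 0.43, adjusted p = 4.4e-05), a 9.84-fold rise. Every 5-FU library lay above every control library, with replicate 1 highest. It passed the count filter only through the 5-FU libraries, so its direction was fixed by that way of passing.

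ZNF461 (ENSG00000197808, 36637192 to 36666853, minus strand), a KRAB protein with 10 fingers, rose from 1.93, 2.76 and 2.37 CPM to 24.9, 16.2 and 15.4 CPM. This was a 7.99-fold change (log2 3.00, SE 0.24, adjusted p = 2.15e-06), with more counts behind it, 43 to 61 per control library and 310 to 489 per 5-FU library. ZNF546 (ENSG00000187187, 39984134 to 40021041, plus strand), a KRAB protein with 22 fingers, rose from 1.66, 2.08 and 1.92 CPM to 15.9, 8.92 and 11.8 CPM, or 6.45-fold (log2 2.69, SE 0.25). Again the groups were apart and 5-FU replicate 1 was highest.

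ZNF83, at 52594060 to 52690496 on the minus strand, combined a large change with a high level. It was at 23.2, 23.4 and 21.3 CPM in control and at 98.6, 82.6 and 78.8 CPM after 5-FU, a 3.83-fold rise (log2 1.94, SE 0.13, adjusted p = 8.69e-07). ZNF44 rose from 9.94 ± 0.610 to 39.4 ± 10.4 CPM (mean ± SD, n = 3 each; log2 fold change 1.98, SE 0.18). Both are KRAB proteins with 14 fingers.

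ZNF841 (log2 fold change 2.09, SE 0.39), ZNF493 (1.79, SE 0.18), ZNF565 (1.73, SE 0.21), ZNF274 (1.59, SE 0.19) and ZNF224 (1.58, SE 0.15) completed the 10 largest increases among members with a mean count of at least 50. All 10 keep groups that do not overlap, and 9 of the 10 carry the KRAB letters. ZNF224 has them only in the looser pattern. An antisense gene covers 40.5% of the exonic bases of ZNF224. The name of the library kit implies no strand marking, and without it reads of the pair cannot be told apart where they overlap. How counting treated strand is not stated. Exons of genes on the other strand, ZNF146 among them, cover 11.3% of those of ZNF565.

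The 2 largest decreases were of genes whose proteins lack the KRAB letters. ZNF787 (ENSG00000142409, 56087366 to 56121280, minus strand), which has 7 fingers and no KRAB letters, fell from 91.5, 83.4 and 98.7 CPM to 24.5, 30.5 and 33.5 CPM. The log2 fold change was -1.63 (SE 0.14, adjusted p = 3.06e-06). All control libraries lay far above all 5-FU libraries.

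ZNF581 (ENSG00000171425, 55635459 to 55645622, plus strand), a small protein with 4 fingers, fell from 16.3, 25 and 21.8 CPM to 6.11, 8.35 and 6.53 CPM (log2 fold change -1.59, SE 0.19). Exons of ZNF580 and CCDC106 on its own strand cover 23.4% of its exonic bases. ZNF580 itself, with 3 fingers, was at 29.1, 31.3 and 32.9 CPM in control and 34.9, 38.5 and 31.4 CPM after 5-FU, and was not called (adjusted p = 0.243).

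ZNF714 (-1.39, SE 0.18), ZNF574 (-1.20, SE 0.14), ZNF792 (-1.19, SE 0.21), ZNF784 (-1.14, SE 0.20), ZNF551 (-1.09, SE 0.23), ZNF850 (-1.08, SE 0.27), ZNF845 (-1.03, SE 0.20) and ZNF837 (-1.03, SE 0.21) followed as log2 fold changes. ZNF792, ZNF551, ZNF850 and ZNF845 carry the KRAB letters and the other four do not. ZNF574 had the most RNA of these genes, 39.4, 30.6 and 39.8 CPM in control against 15.5, 16.8 and 15.3 CPM after 5-FU. ZNF850 had the least, and its groups lay closest: 7.94, 4.38 and 6.42 CPM against 3.77, 2.50 and 2.60 CPM. The plot of levels by library shows all 20 genes.

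**Figure D3:**
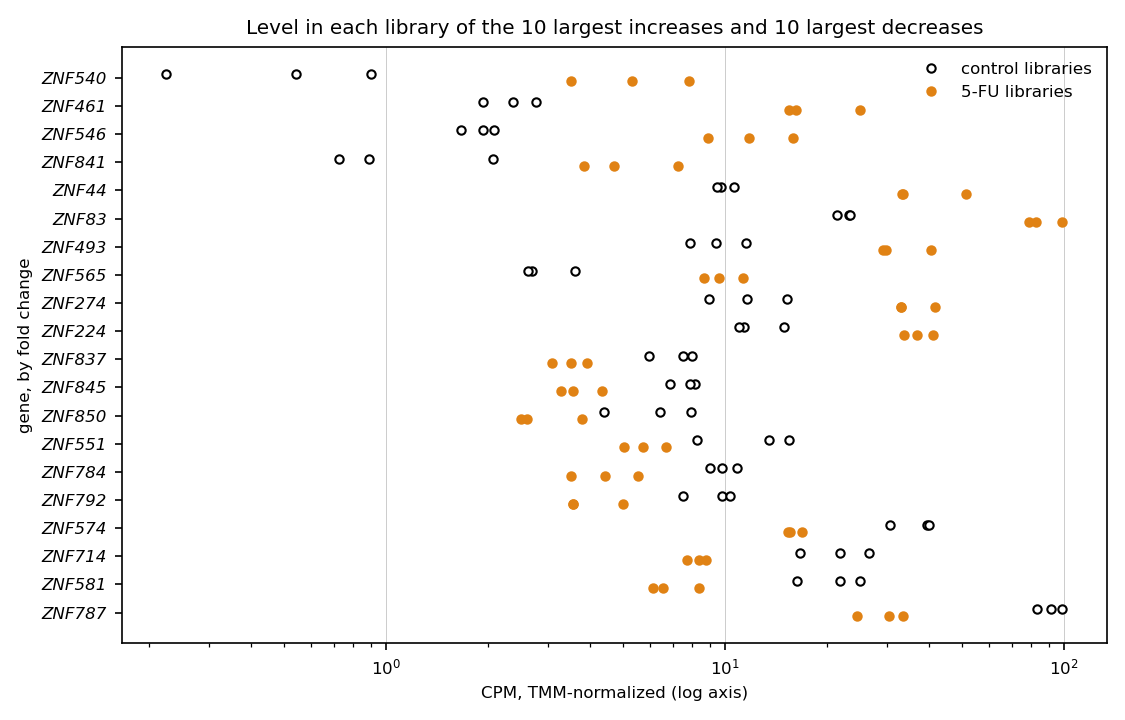
TMM-normalized CPM on a log axis (horizontal) of the 10 largest increases and 10 largest decreases (vertical), with 1 open point per control library and 1 filled point per 5-FU library. The points of the 2 groups do not overlap for any gene, since that was a condition for naming, and control means of the increases run from 0.557 CPM for ZNF540 to 22.6 CPM for ZNF83.

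Few of the abundant members carried the KRAB letters, and most of them fell or were not called. Per length, ZNF146 had the highest mean level, 28.7 ± 3.51 FPKM in control and 18.7 ± 1.52 FPKM after 5-FU (log2 fold change of the counts -0.47, SE 0.12, adjusted p = 0.00488). ZNF146 encodes OZF, a protein made almost entirely of fingers. It was at 123, 101 and 121 CPM in control and 83.9, 88.7 and 75.8 CPM after 5-FU. With upper-quartile factors it was no longer called (adjusted p = 0.403).

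ZNF787 followed at 25.8 and 7.57 FPKM. ZNF121, with 9 fingers, was the abundant member that rose, from 9.86 ± 1.25 to 16.7 ± 1.52 FPKM. Its CPM were 76.9, 61.3 and 68.2 in control and 142, 133 and 113 after 5-FU (log2 fold change 0.91, SE 0.13). ZNF524 (-0.83), ZNF579 (-0.54, lost with upper-quartile factors at an adjusted p of 0.258) and ZNF581 fell on the log2 scale, and ZNF358 fell from 22.6 ± 0.754 to 11.3 ± 1.10 CPM. ZNF317 (0.09, SE 0.12), ZNF865 (0.16, SE 0.14) and ZNF580 (0.17, SE 0.12) were not called. Among these 10, ZNF317 alone has the KRAB letters.

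Members with a described role went different ways. ZNF274, a KRAB protein with 5 fingers that binds the 3′ ends of other zinc finger genes and recruits TRIM28 and SETDB1 there, rose 3.00-fold. Its levels were 15.2, 11.6 and 8.93 CPM in control and 41.6, 33.0 and 33.0 CPM after 5-FU. ZNF224, a repressor first described at the aldolase A promoter, rose 2.99-fold, from 11.4, 14.9 and 11.0 CPM to 41.0, 33.6 and 36.8 CPM. In both genes the lowest 5-FU library was more than 2-fold above the highest control library.

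ZNF91, a primate-specific KRAB protein that represses SVA retrotransposons and holds 31 fingers, rose 1.62-fold (adjusted p = 0.00465). Its CPM were 26.0, 31.7 and 28.0 in control and 61.3, 38.7 and 38.8 after 5-FU, so that 5-FU replicate 1 stood well above the other two. ZNF93, which represses LINE-1 elements, had 3 counts in 5-FU replicate 1 and 0 in the other 5 libraries, and was not tested.

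ZNF350 (ZBRK1), a partner of BRCA1 that represses the damage-response gene GADD45A, was nearly absent in untreated cells, with 2, 3 and 3 counts. It had 42, 16 and 20 counts after 5-FU (log2 fold change 3.34, SE 0.55, adjusted p = 0.000208). It passed the count filter only through the 5-FU libraries. Over the settings that use counts its log2 fold change lay between 2.81 and 3.69, and it was 0.30 on log2(FPKM + 1), a scale that shrinks low genes. ZNF473, which takes part in the 3′ end processing of histone mRNA, was at 23.6, 21.6 and 28.6 CPM in control and at 33.8, 27.9 and 26.8 CPM after 5-FU, and was not called (log2 fold change 0.26, SE 0.15, adjusted p = 0.130).

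ZNF420 (APAK), an inhibitor of p53, was at 2.56, 2.98 and 2.17 CPM against 2.34, 1.56 and 1.70 CPM and was not called either (log2 fold change -0.46, SE 0.27, adjusted p = 0.144). Another 3 members, all studied in tumours, had too few counts to be tested. ZNF331, an imprinted gene, had 0 counts in every control library and 6, 2 and 5 in the 5-FU libraries. ZNF304, a transcriptional repressor, had 1, 0 and 0 counts against 10, 7 and 7. ZNF382, a gene often silenced by methylation in carcinomas, had 0, 3 and 1 counts against 5, 1 and 4, with overlapping groups.

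Along the chromosome, members were divided wherever neighbouring starts lay more than 1 Mb apart. This gave 17 groups, of which 7 held at least 5 tested members and are called A to G here, from the end of the short arm to the end of the long arm. Group B, from 11.5 to 12.6 Mb on the short arm, held the highest share of increases, with 16 of 24 tested members higher, 2 lower and 0.76 as median log2 fold change. Of these, 6 passed the count filter only through the 5-FU libraries; among the other 18, 11 rose and 2 fell with a median of 0.63, still the highest share (61.1%), beside 50% in group A and at most 42.9% in groups C to G. Group G, from 55.5 to 58.5 Mb at the end of the long arm, was mixed, with 14 of 45 higher, 12 lower and a median of 0.09. The other groups had medians from 0.06 to 0.53, beside the protein-coding median of -0.21. Over members that passed the filter through both groups, the medians were 0.34 in A, 0.19 in C, -0.0028 in D, 0.42 in E, 0.19 in F and 0.07 in G. In group G 12 of 43 such members rose and 12 fell. The plot by gene order shows each member.

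**Figure D4:**
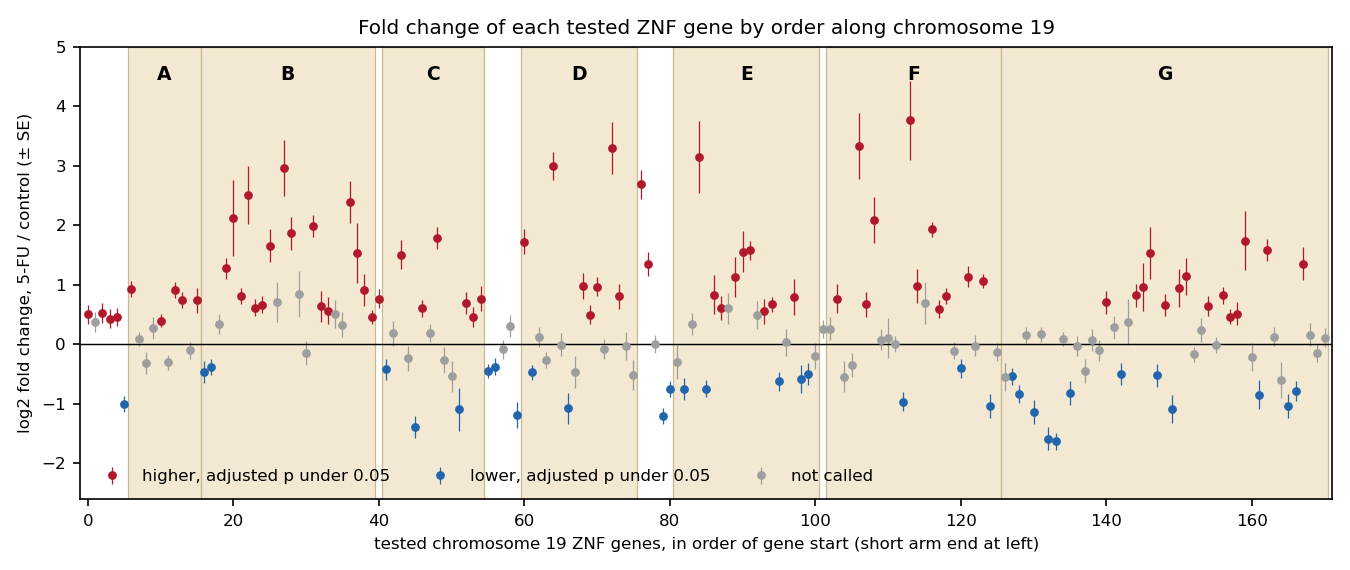
Log2 fold change of 5-FU against control (vertical axis, bars ± SE) of the 171 tested members in order of gene start (horizontal axis), red where higher, blue where lower and grey where not called in edgeR. Shaded bands A to G are the positional groups of at least 5 tested members; band B holds 16 red points of 24, while 5 of the first 8 points of band G are blue and the other 3 grey.

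In group B the increases were spread over neighbouring genes. ZNF44 led those with a mean count of at least 50, and ZNF441 (1.28), ZNF440 (0.81), ZNF700 (0.67), ZNF69 (0.62) and ZNF791 (0.46), named after their values were seen, rose as well on the log2 scale. ZNF878 (2.96), ZNF439 (2.52), ZNF709 (2.40) and ZNF491 (2.13) had larger log2 fold changes on few counts: ZNF878 had 5, 4 and 3 in control and 44, 19 and 26 after 5-FU. All of these passed the count filter only through the 5-FU libraries, which largely fixes their direction. ZNF653 (-0.46) and ZNF627 (-0.38) fell, and both lie at the short-arm end of the group. ZNF709, ZNF564 and ZNF490 share over 50% of their exonic bases with other annotated genes on the same strand, so their counts are uncertain. The levels in this group were low, with a median of 4.28 CPM.

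Group A, from 8.8 to 9.8 Mb, held 10 tested members of 14. In it 5 rose, led by ZNF558, from 31.9, 36.7 and 36.4 CPM to 75.5, 59.1 and 65.8 CPM (log2 fold change 0.93, SE 0.13). The group's median was 0.34.

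Group C, from 19.7 to 24.1 Mb next to the centromere, is the primate-expanded cluster that holds ZNF91 and ZNF93, and most of it was too low to test: 14 of 35 members were tested. Of these 6 rose and 3 fell (median 0.19). ZNF493, the leading gene, rose from 9.38, 11.5 and 7.90 CPM to 40.4, 29.2 and 29.8 CPM, and ZNF714, in the same group, fell from 26.5, 16.6 and 21.8 CPM to 8.35, 8.76 and 7.72 CPM. Neighbours thus changed in opposite directions.

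Group D, from 36.2 to 37.8 Mb, had 7 higher and 2 lower among 16 tested of 26 (median 0.06), and it holds both ZNF540 and ZNF461 as well as ZNF146 and ZNF850. Without ZNF540, which passed the count filter only through the 5-FU libraries, 6 of 15 rose and 2 fell. Group E, from 43.5 to 45.1 Mb, had 9 higher and 5 lower among 20 tested of 22 (median 0.53). Without ZNF404 and ZNF221, which passed the filter only through the 5-FU libraries, 7 of 18 rose and 5 fell. ZNF224 led the members of group E that averaged 50 counts or more, ZNF404 had the larger change on fewer counts, and 2 tested members of the group carry the fixed KRAB letters. Group F, from 51.6 to 53.6 Mb, had 11 higher and 3 lower among 24 tested of 37 (median 0.43), with ZNF841 the leading gene at that count, ZNF610 and ZNF350 above it on fewer counts, and ZNF83 the most abundant increase. Without ZNF610 and ZNF350, which passed the filter only through the 5-FU libraries, 9 of 22 rose and 3 fell. The decreases in group F were ZNF480 (-0.96), ZNF468 (-0.40) and ZNF845.

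Group G was the largest, with 58 members listed. Of its first 8 tested genes ZNF579, ZNF524, ZNF784, ZNF581 and ZNF787 fell, and ZNF628 (-0.55), ZNF865 (0.16) and ZNF580 (0.17) were not called. None of those that fell has the KRAB letters. Further along it holds KRAB members that rose, among them ZNF419 (0.83), ZNF814 (0.83), ZNF587 (0.47) and ZNF274 on the log2 scale, and others that fell, such as ZNF551, ZNF584 (-0.78) and ZNF71 (-0.82). Apart from the named leaders, the genes listed here were picked after their values were seen.

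Over all groups, 156 pairs of tested members stood next to each other within a group. Both members rose in 35 pairs, both fell in 6 and they moved in opposite directions in 17; in the other 98 pairs at least 1 member was not called. Over all tested members 43.9% rose and 19.3% fell, so many pairs of increases would arise from these shares alone. Whether neighbours moved together was not tested. The 18 tested members outside the 7 groups had 7 higher and 6 lower (median 0.29). Other protein-coding genes that lie between members of a group, 49 of them tested, rose in 20 and fell in 13 cases with a median of 0.21. Exons of another gene overlap 64 tested members on the same strand and 53 on the other, and 6 share over 50% of their exonic bases on the same strand.

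Genes of KRAB partner proteins mostly fell, as did abundant protein-coding genes. Of 23 genes of the TRIM28 corepressor machinery and its readers and writers, all tested, 15 fell, 2 rose and 6 were not called, and their median log2 fold change was -0.70. Of protein-coding genes in the highest quintile of mean CPM, above 60.6 CPM, 60.8% fell and 17.2% rose, with a median of -0.54. In the next quintile down 54.4% fell and 19.7% rose. Not all listed genes were that abundant: DNMT3B, TRIM24, SETDB1, CHD4, MORC2, DNMT3A, ATF7IP and SMARCAD1 averaged less than 60.6 CPM. Among the listed genes above that level, all fell but MPHOSPH8, which rose, and TRIM27, which was not called. Whether the list differed from genes of like abundance was not tested. TRIM28 itself fell from 466, 358 and 590 CPM to 177, 199 and 175 CPM (log2 fold change -1.36, SE 0.18, adjusted p = 3.93e-05). Its lowest control library was above its highest 5-FU library. SETDB1, the methyltransferase of histone H3 lysine 9, was at 36.6, 43.1 and 41.6 CPM against 41.3, 42.6 and 34.1 CPM and was not called (-0.04, SE 0.13).

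The heterochromatin proteins fell together: CBX5 from 341 ± 68.9 to 69.6 ± 6.22 CPM (log2 fold change -2.29), CBX1 by 1.85 and CBX3 by 1.21 on the log2 scale. UHRF1, which guides maintenance methylation to newly replicated DNA, fell from 158, 87.3 and 166 CPM to 6.42, 14.2 and 12.8 CPM (-3.62, SE 0.30). DNMT1, the maintenance methyltransferase, fell by 2.17 and DNMT3B by 0.57, while DNMT3A rose from 43.7 ± 2.70 to 66.1 ± 8.51 CPM (0.60, SE 0.13). Both DNMT3 genes encode methyltransferases that act de novo.

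SUMO2, a ubiquitin-like modifier, fell by 2.26 on the log2 scale. So did the deacetylases HDAC2 (-1.25) and HDAC1 (-1.10), the NuRD helicase CHD3 (-0.70), the corepressor NCOR1 (-0.41) and TRIM24 (-1.39), a relative of TRIM28. CHD4 (0.09), ATF7IP (-0.25), TRIM27 (-0.04) and SMARCAD1 (-0.14) were not called. Of the HUSH silencing complex, FAM208A (TASOR) fell by 0.88 and PPHLN1 by 0.28 (0.08, the other sign, with upper-quartile factors), MPHOSPH8 rose by 0.28 and MORC2, its effector, was not called (0.11). The calls of MPHOSPH8, PPHLN1, NCOR1 and DNMT3B did not hold under other settings, among them a mean count of at least 50 for PPHLN1, NCOR1 and DNMT3B (adjusted p = 0.781, 0.296 and 0.0652) and DESeq2 for MPHOSPH8 (adjusted p = 0.0916). Several of these genes are most abundant in dividing cells, and in a bulk sample fewer cells in a state and less RNA per cell cannot be told apart.

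**Figure D5:**
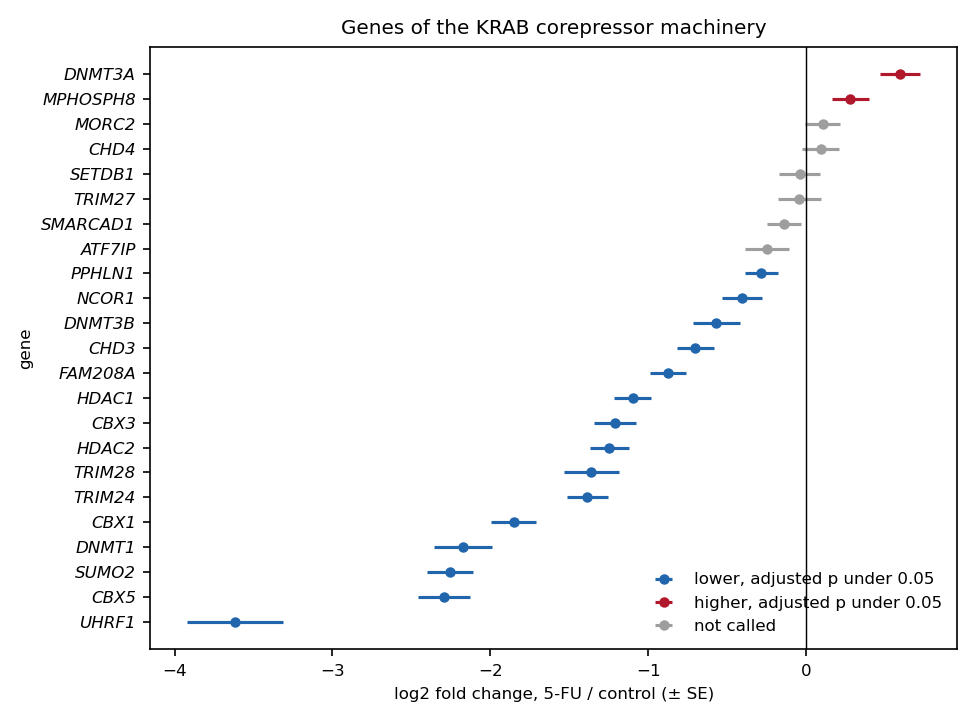
Log2 fold change of 5-FU against control (horizontal axis, bars ± SE) of the 23 genes of the KRAB corepressor list (vertical axis), blue where lower, red where higher and grey where not called in edgeR. UHRF1 lies furthest left at -3.62, TRIM28 lies at -1.36, and DNMT3A and MPHOSPH8 are the 2 genes called higher.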

How the data were processed

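Gene-level values of 6 libraries were used. Per the labels' protocols, RNA came from TRIzol lysates and libraries from the NEBNext Ultra RNA kit, a name that implies no strand marking. Per the submitters' processing notes, the build was GRCh38 and the tools were DESeq2 1.16.1, featureCounts 1.5.0-p3 and HISAT2 2.0.5. How counting treated strand and reads matching several genes is not given in the sources used here. Tandem duplicates share sequence, so such reads could shift counts between members. The deposited counts are whole numbers, with a family label and position for each gene. The authors' FPKM are fragments per gene length and library size. All 58735 identifiers and positions matched GENCODE release 29.

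Counts were tested with edgeR 4.0.16 (quasi-likelihood, R 4.3.3): filterByExpr (minimum count 10, minimum total 15), TMM factors, group only, Benjamini-Hochberg adjustment over all 19771 genes tested, 0.05 as threshold. The SE is the unshrunk log2 coefficient over the square root of F. The fit was tested on simulated data. Members, lists and tests were chosen with earlier results of these data known, and sets are described by counts and medians alone. Named members are the 10 largest increases and decreases that are called, average 50 or more counts and have separate group ranges; the 10 most abundant by mean FPKM; the leading such gene of each positional group; and lists of genes with a described role and of KRAB corepressors, 2 of them not reported here but included in totals over settings. Fingers were counted in the translated longest protein-coding transcript of GENCODE and the KRAB letters sought in any transcript, in place of a reference protein table that the design had assumed. Alternatives were other size factors and filters, DESeq2 1.42.0, voom in limma 3.58.1, limma on log2(FPKM + 1 or 0.1), a replicate block, leaving out each library, plain totals, no mitochondrial genes, and removal of length and GC trends (loess span 0.3); the trend on length with GC, the looser KRAB pattern and the counts over members that passed the filter through both groups were chosen after seeing the data.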

Additional observations from a re-analysis of the deposited data

How the results depend on the processing

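Members that rose outnumbered those that fell in every setting run, and the members' median lay above that of ZNF genes elsewhere in every setting, but both shares move with scaling. Over genes tested in both fits, the median difference of a gene's log2 fold change from the one reported was 0.36 with upper-quartile factors, 0.25 at a mean count of at least 50, 0.11 with plain totals, -0.15 without a low-count filter, -0.12 to -0.14 on FPKM and -0.11 with length and GC trends removed. With upper-quartile factors 104 members rose and 16 fell (86.7% of called members higher, against 69.4%), the members' median log2 fold change was 0.70 and that of ZNF genes elsewhere 0.37. At a mean count of at least 50, 74 rose and 19 fell (79.6% higher) and the median elsewhere was 0.26. On FPKM of at least 1 in 3 samples, 35 rose with either pseudocount and 33 or 34 fell (51.5% and 50.7% higher); the members' median was 0.0050 with a pseudocount of 1 and 0.0042 with 0.1, and the median elsewhere was -0.13 with 0.1. On FPKM without that filter 56 rose and 42 fell (57.1% higher) and the members' median was 0.0943. Without a low-count filter 65 rose and 41 fell among 215 tested, and the members' median lay 0.26 below that of all genes, whose value was 0.63. Plain totals gave 81 and 24, DESeq2 72 and 36, voom 75 and 32. Over all genes tested, upper-quartile factors gave 9602 higher and 4614 lower, beside 7171 and 6706 in the reported fit. A mean count of at least 50 gave 5141 and 4935, plain totals 7858 and 6042, and DESeq2 6600 and 6802. FPKM of at least 1 with a pseudocount of 1 gave 4320 and 7136, FPKM without that filter 6243 and 7408, and no low-count filter 8157 and 7588. Leaving out each library gave 60 to 72 higher and 25 to 37 lower, with medians from 0.22 to 0.35. KRAB members kept a positive median in all settings, from 0.12 to 0.82; members without the letters ranged from -0.59 to 0.10, above 0 with upper-quartile factors only. The causes were not tested.

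Same-numbered libraries had correlations of -0.07, -0.20 and 0.06 in their deviations from the group means, and unlike-numbered ones -0.12 to 0.17. Such values cannot show whether the numbers pair the samples, which is not stated. The fit with a replicate block gave 71 higher and 27 lower. Of 1146 values of 58 named genes under other settings, 1063 kept direction and call, 31 lost the call, 22 gained one and 30 changed sign. The sign changes concern ZNF317 (-0.0534 without a low-count filter, -0.0454 and -0.0492 on FPKM with pseudocounts of 1 and 0.1), ZNF865 (-0.0276 with length and GC trends removed), CHD4 (-0.0537, -0.0384 and -0.0489 as for ZNF317, -0.128 with the length trend and -0.192 with length and GC trends removed) and MORC2 (-0.0416, -0.0371 and -0.0410 as for ZNF317). Upper-quartile factors turned ATF7IP (0.113), PPHLN1 (0.0766), SETDB1 (0.318), SMARCAD1 (0.220) and TRIM27 (0.321); a mean count of at least 50 turned ATF7IP (0.0051), SETDB1 (0.211), SMARCAD1 (0.113) and TRIM27 (0.211). Plain totals turned SETDB1 (0.0674) and TRIM27 (0.0678), length and GC removal turned SMARCAD1 (0.0724). Leaving out 1 library gave -0.143 to 0.03 for SETDB1 and -0.181 to 0.0139 for TRIM27. Depth limits the 69 untested members and the 27 tested ones with a mean count under 50.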
